A study of Mus musculus with 7 samples.

Results

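The insulin-like growth factor (IGF) system was described here by 10 genes, found by symbol among the 55487 genes of the table: the ligands Igf1 and Igf2, the receptors Igf1r and Igf2r, and the binding proteins Igfbp2 to Igfbp7. The genes were chosen as a family with earlier results of these data known, among them the higher Igf1 level with vesicles of senescent cells, so differences between the groups are given as a description and support nothing by themselves. The libraries came from primary tumours of wild-type BALB/c mice labelled day 12, grown in the mammary fat pad from 4T1-12b(luc) cells, a mouse mammary carcinoma line that carries luciferase. At about 150 mm3 each tumour received 6 injections of 50 µl into the tumour, 1 every other day. The injected agents were small extracellular vesicles of 4T1 cells treated for 72 h with 100 ng/ml nocodazole (therapy-induced senescent cells, TIS sEV, 3 libraries), vesicles of 4T1 cells treated for 72 h with DMSO (Cont sEV, 1 library), or saline (3 libraries). Vesicles were collected after a further 72 h of release, and nocodazole is a drug that blocks microtubule assembly. The labels give neither the age of the mice nor whether the libraries of a group came from separate mice, so the spread between libraries may be technical.

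IGF1 and IGF2 are secreted growth factors that act through the receptor tyrosine kinase IGF1R to drive growth and survival. IGF2R, also the mannose 6-phosphate receptor, takes up IGF2 and carries it to lysosomes. The binding proteins hold the ligands in and around tissues and either limit or prolong their action. In the mammary gland, IGF1 made by stromal cells supports duct growth, and IGFBP5 rises when the gland regresses after lactation. Tumour cells and host cells were both mouse, and in bulk tissue a change in the share of a cell type cannot be told apart from a change in RNA per cell.

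Expression was given as TPM, a length-corrected level that adds up to the same total in each library, and the sequencing depth is unknown. TIS sEV replicate 2 stood apart. There 22.9% of the TPM fell on nuclear ribosomal RNA genes, which held 0.807% to 2.40% elsewhere, and 8909 genes reached 1 TPM, while 11378 to 12328 did so in the other libraries. Nuclear protein-coding genes held 28.6% of the TPM in that replicate, against 56.8% to 74.7% elsewhere. The 20 highest genes held 67.8% there, against 25.4% to 40.7% elsewhere. Values are therefore given as scaled TPM, the deposited TPM divided by a median-of-ratios size factor for the library, which was 0.352 for TIS sEV replicate 2 and 0.993 to 1.51 for the others. The epithelial keratin Krt8 lay between 590 and 1165 scaled TPM in every library, as a tumour of mammary epithelial cells would carry. Differences between groups are log2 differences of scaled TPM + 1 with their standard error (SE), fitted with limma to the 12058 genes that reached 1 TPM in at least 3 libraries. Of the 10 genes, 7 passed this filter, and Igf2, Igfbp2 and Igfbp5 did not.

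The promoters of the genes whose transcripts made up most of the binding protein RNA, Igfbp4 and Igfbp7, are shown because both are rich in G and C yet carry different elements. Each run is the 250 bases before the transcription start, from RefSeq on GRCm38.p6, written 5′ to 3′ on the gene's strand. Capitals mark TATAAA, the core of the TATA box, and GGGCGG, the GC box, on either strand, and the motifs did not overlap.
Igfbp4, chr11:99040994-99041243, plus strand: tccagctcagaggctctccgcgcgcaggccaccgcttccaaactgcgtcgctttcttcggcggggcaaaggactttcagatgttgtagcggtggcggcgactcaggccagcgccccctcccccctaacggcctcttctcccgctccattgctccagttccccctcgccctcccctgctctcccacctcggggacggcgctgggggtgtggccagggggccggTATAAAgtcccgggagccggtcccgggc
Igfbp7, chr5:77408046-77408295, minus strand: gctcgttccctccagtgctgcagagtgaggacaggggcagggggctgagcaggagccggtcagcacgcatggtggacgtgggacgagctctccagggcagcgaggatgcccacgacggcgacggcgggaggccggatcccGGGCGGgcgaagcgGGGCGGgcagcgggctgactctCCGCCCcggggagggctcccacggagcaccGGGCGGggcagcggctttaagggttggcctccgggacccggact
The Igfbp4 run held 1 TATAAA, 28 bases before the start, and no GGGCGG, while the Igfbp7 run held 4 GGGCGG and no TATAAA. Among all 32851 promoter windows of this length, 12.4% held TATAAA and 32.7% held GGGCGG. The base composition was 69.2% G and C for Igfbp4 and 74.0% for Igfbp7, against a median of 52.4% over all windows. The window of Igf1, at 52.8% with 5 CpG sites, was near that median, and it held neither motif. That window, chromosome 10, 87860861 to 87861110, lay inside the gene as GENCODE places it (from 87858265) and overlapped an exon. The windows of Igfbp4 and Igfbp7 overlapped none of their exons. The bases before the GENCODE start of Igf1 were not examined. All 10 genes had at least 1 window in the RefSeq table.

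The genes differ widely in size. On GRCm38, Igf1 spans chromosome 10, 87858265 to 87937042, with 4 or 5 exons in its 6 transcripts of the consensus coding set. Igf1r (chromosome 7, 67952827 to 68233668) and Igf2r (chromosome 17, 12682406 to 12769664) have 21 and 48 exons. Igfbp4 (chromosome 11, 99041244 to 99054392) and Igfbp6 (chromosome 15, 102144362 to 102149511) have 4 exons each. Igfbp2 and Igfbp5 lie tail to tail on chromosome 1 with 5457 bases between them.

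Binding protein transcripts were the most abundant of the system. Igfbp4, a binding protein that restrains IGF action until a protease cleaves it, had the highest level in every library, at a median of 189 scaled TPM (119 to 340). Igfbp7, a relative with low affinity for the ligands, followed at a median of 83.1 scaled TPM (34.4 to 149) and was below Igfbp4 and above Igfbp3 in 7 of 7 libraries. Igfbp3, the main carrier of IGFs in blood, had a median of 21.2 scaled TPM (4.51 to 47.7), and Igfbp6, which prefers IGF2, had 16.6 (7.03 to 32.2). These neighbours in the order did not separate, since Igfbp3 was above Igfbp6 in 5 of 7 libraries. Nor did Igf2r (median 10.8 scaled TPM), Igf1 (1.32) and Igf1r (4.57) hold 1 order: Igf1 was above Igf1r in 3 of 7 libraries, those of the TIS sEV group. Igfbp5 (0.473 scaled TPM), Igfbp2 (0.188) and Igf2 (0.2001) were low throughout. Igf2 and Igfbp2 stayed under 1 TPM in every library, and Igfbp5 reached it in 2.

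**Figure D1:**
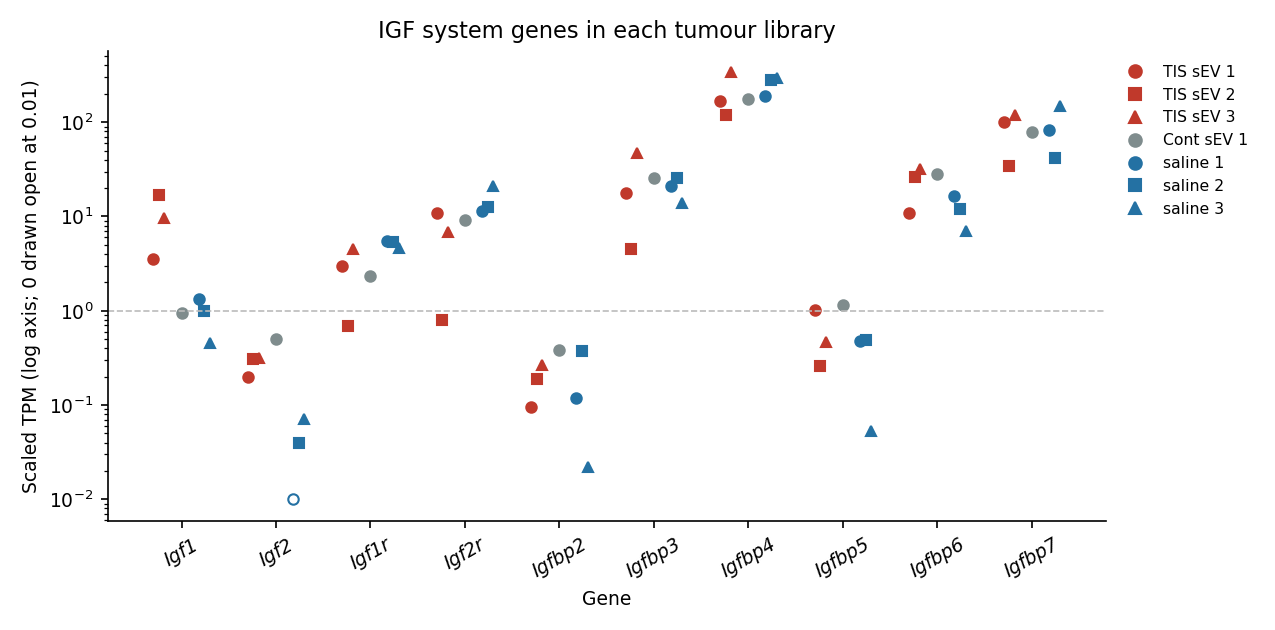
Scaled TPM (log axis) of the 10 IGF system genes in the 3 TIS sEV, 1 Cont sEV and 3 saline libraries; each point is 1 library and the dashed line marks 1 scaled TPM, and a value of 0 is drawn open at 0.01. The 3 TIS sEV points of Igf1 (3.53 to 16.8) lie above all saline points (0.454 to 1.32), Igf1r and Igf2r lie lower with TIS sEV, and the binding proteins overlap.

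Of the members tested, Igf1 had the largest difference between TIS sEV and saline tumours, with higher values in TIS sEV. It stood at 3.53, 16.8 and 9.63 scaled TPM in TIS sEV replicates 1, 2 and 3, at 0.955 in the Cont sEV tumour and at 1.32, 1.00 and 0.454 in saline replicates 1, 2 and 3. Every TIS sEV library was above every saline library, as for 11.4% of all genes tested in scaled TPM. The Cont sEV library lay within the saline range. The same held for TPM as deposited, with 4.40, 5.91 and 9.56 TPM with TIS sEV, 0.956 with Cont sEV and 1.33, 1.51 and 0.684 with saline. On that scale the median gene differed by -0.62 (log2), and 0.862% of all genes tested were higher without overlap and 13.5% lower. The means were 9.97 ± 6.62 scaled TPM with TIS sEV and 0.927 ± 0.440 with saline (SD, n = 3 each), and the fitted log2 difference was 2.33 (SE 0.49). A difference of at least this size was found for 57 of the 12058 genes tested, Igf1 included, which is 0.473%.

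The Igf1 difference kept its sign when any 1 library was left out, falling to 1.87 when TIS sEV replicate 2 was left out and reaching 2.86 when replicate 1 was. The other ligand, Igf2, an imprinted growth factor of fetal tissue, was near 0. It had 0.2001, 0.304 and 0.316 scaled TPM with TIS sEV, 0.502 with Cont sEV, and 0.0397 and 0.0703 in saline replicates 2 and 3, and it was listed at 0 in saline replicate 1. The TIS sEV values were above the saline values, but all 7 lay below the level that was tested.

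Both receptors had lower values in TIS sEV tumours, and 1 library held much of that difference. Igf1r was at 2.98, 0.697 and 4.57 scaled TPM in TIS sEV replicates 1, 2 and 3, at 2.33 with Cont sEV and at 5.48, 5.35 and 4.65 in saline replicates 1, 2 and 3. The TIS sEV and saline groups did not overlap, but the gap between TIS sEV replicate 3 and saline replicate 3 was small. The log2 difference was -0.88 (SE 0.42), which shrank to -0.39 when TIS sEV replicate 2 was left out. Igf2r was at 10.8, 0.793 and 6.92 scaled TPM with TIS sEV, at 9.23 with Cont sEV and at 11.3, 12.7 and 21.1 with saline. Here too the groups did not overlap, and in scaled TPM 12.3% of all genes tested were lower without overlap. TPM as deposited did overlap for Igf2r (13.5 in TIS sEV replicate 1, against 11.4 in saline replicate 1). In TPM as deposited 13.5% of all genes tested were lower without overlap, Igf1r among them. The Igf2r log2 difference was -1.49 (SE 0.67), and -0.68 without TIS sEV replicate 2. With all libraries, 21 of the 12058 genes tested had a difference this low or lower, Igf2r included.

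The ratio of Igf1 to Igf1r does not depend on the scaling between libraries. It was 1.19, 24.05 and 2.11 in TIS sEV replicates 1, 2 and 3, 0.410 with Cont sEV and 0.241, 0.187 and 0.0976 in the saline libraries. Igf1 thus exceeded the receptor in every TIS sEV library and in no other library. In TIS sEV replicate 2 Igf1r was at 0.246 TPM as deposited, so the 24.05 rests on a divisor under 1 TPM. The ratio restates the Igf1 and Igf1r values above and is no separate result. The mean ratio was higher by 8.94 in TIS sEV than in saline tumours, and by 1.47 when TIS sEV replicate 2 was left out.

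Among the binding proteins, Igfbp6 was higher on average in TIS sEV tumours though its groups overlapped, as did those of the other binding proteins. Igfbp6 was at 10.8, 26.1 and 32.2 scaled TPM with TIS sEV, at 28.5 with Cont sEV and at 16.6, 12.1 and 7.03 with saline. TIS sEV replicate 1 lay within the saline range, and the other vesicle-treated tumours, the Cont sEV one included, lay above it. Its log2 difference was 0.84 (SE 0.45), and leaving out 1 library gave 0.54 (saline replicate 3, or TIS sEV replicate 3) to 1.29 (TIS sEV replicate 1).

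Igfbp4 was at 169, 119 and 340 scaled TPM with TIS sEV, at 175 with Cont sEV and at 189, 278 and 294 with saline. TIS sEV replicate 3 had the highest value of all libraries and replicate 2 the lowest, so the groups overlapped, with a log2 difference of -0.39 (SE 0.40) that was -0.05 without TIS sEV replicate 2 and -0.81 without replicate 3. Igfbp7 was at 102, 34.4 and 120 scaled TPM with TIS sEV, at 79.0 with Cont sEV and at 83.1, 42.2 and 149 with saline. Its log2 difference of -0.11 (SE 0.59) took the other sign without TIS sEV replicate 2 (0.45) or saline replicate 3 (0.33). Igfbp3 was at 17.9, 4.51 and 47.7 scaled TPM with TIS sEV, at 25.3 with Cont sEV and at 21.2, 25.9 and 13.997 with saline. The TIS sEV values enclosed all others, and the log2 difference of -0.27 (SE 0.73) was 0.55 without TIS sEV replicate 2. Igfbp5 and Igfbp2 had at most 1.16 and 0.385 scaled TPM in any library, and their groups overlapped.

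**Figure D2:**
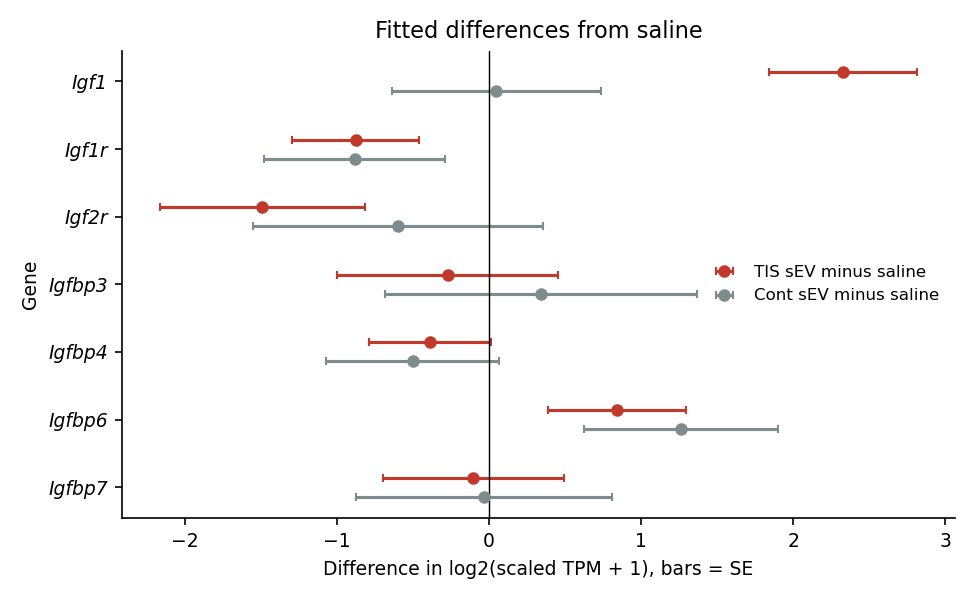
Fitted log2 differences from saline (points, with SE as bars) for the 7 tested genes, TIS sEV minus saline above Cont sEV minus saline for each gene. Igf1 stands at 2.33 with TIS sEV and at 0.05 with Cont sEV, Igf1r at -0.88 and -0.89, and Igfbp6 at 0.84 and 1.26.

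Against saline, 0 of the 7 tested members passed in limma at a Benjamini-Hochberg adjusted p under 0.05 (adjusted p of 0.338 to 0.934), and neither did any other gene, so the background was 0% of 12058. At an unadjusted p under 0.05 there was 1 member, Igf1, against 14.8% of all genes tested. TIS sEV libraries lay wholly above saline for 1 of the 7 members and wholly below for 2, against 11.4% and 12.3% of all genes. Of the 7 differences 2 were above 0, against 49.6% of all genes. The median difference of the 7 members was -0.27, and that of all genes tested was -0.0037.

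The lone Cont sEV library had no replicate, and its comparisons assume that it varied like the other groups. In Cont sEV against saline, which shares its saline libraries with the comparison above, the Igf1 log2 difference was 0.05 (SE 0.69), that of Igf1r -0.89 (SE 0.59), that of Igf2r -0.60 (SE 0.95) and that of Igfbp6 1.26 (SE 0.64). None of the 7 members passed in limma (adjusted p of 0.455 to 0.991, 0 at an unadjusted p under 0.05), against 0.00829% of all genes at the adjusted threshold and 12.8% at the unadjusted one. Cont sEV lay above all saline libraries for 1 of the 7 members, Igfbp6, and below them for 3, Igf1r, Igf2r and Igfbp4, where 35.9% and 35.7% of all genes did so, and 3 of the 7 differences were above 0, against 49.8%. In TIS sEV against Cont sEV, Igf1 differed by 2.28 (SE 0.69), Igf1r by 0.01 (SE 0.59) and Igfbp6 by -0.42 (SE 0.64). Again 0 of 7 members passed (limma adjusted p of 0.903 to 0.999, and 1, Igf1, at an unadjusted p under 0.05), against 0.00829% and 4.86% of all genes. TIS sEV lay wholly above Cont sEV for 1 member, Igf1, and wholly below for 0, against 22.1% and 22.4% of all genes, and 3 of the 7 differences were above 0, against 49.5%. With 1 Cont sEV library, the Igf1 difference between the vesicle types has no replicate check on the Cont sEV side.

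**Figure D3:**
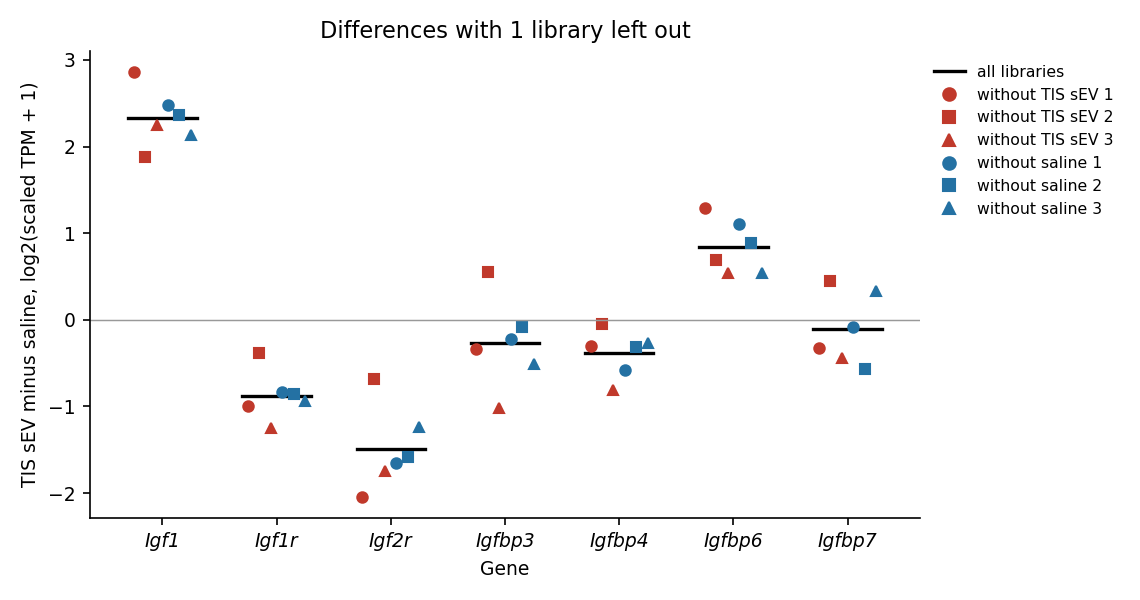
Log2 difference of TIS sEV minus saline for the 7 tested genes with all libraries (black bars) and with 1 library left out (points). Igf1 stays between 1.87 and 2.86, whereas Igfbp3 and Igfbp7 change sign without TIS sEV replicate 2, and Igfbp7 also without saline replicate 3.

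Shares within the binding protein RNA, which do not depend on the scaling, overlapped between TIS sEV and saline tumours for all 6 genes. Igfbp4 made up 56.2%, 64.6% and 62.9% of the summed Igfbp2 to Igfbp7 TPM in the TIS sEV libraries, 56.6% with Cont sEV and 60.9%, 77.4% and 63.3% with saline. Igfbp7 made up 33.8%, 18.6% and 22.2% with TIS sEV, 25.5% with Cont sEV and 26.8%, 11.8% and 32.2% with saline. Both ranges overlapped. The share of Igfbp6 was 7.88% ± 5.52 with TIS sEV and 3.41% ± 1.91 with saline (SD, n = 3 each), with the highest value, 14.1%, in TIS sEV replicate 2. The difference of 4.48 percentage points was 1.36 when that library was left out.

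The summed binding protein level was 342 ± 182 scaled TPM with TIS sEV and 378 ± 78.7 with saline (SD, n = 3 each), so the groups differed by less than their spread. Summed ligand TPM came to 1.24%, 9.23% and 1.84% of summed binding protein TPM in the TIS sEV libraries, to 0.471% with Cont sEV and to 0.426%, 0.291% and 0.113% with saline. Igf1 supplied 94.6% to 98.2% of the ligand TPM with TIS sEV, 65.5% with Cont sEV and 86.6% to 100% with saline. The ligand share was thus higher in each TIS sEV library than in each saline library, and binding protein transcripts exceeded ligand transcripts in TPM in all 7 libraries. As Igf1 supplied most of the ligand TPM, the higher share restates the Igf1 values.

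**Figure D4:**
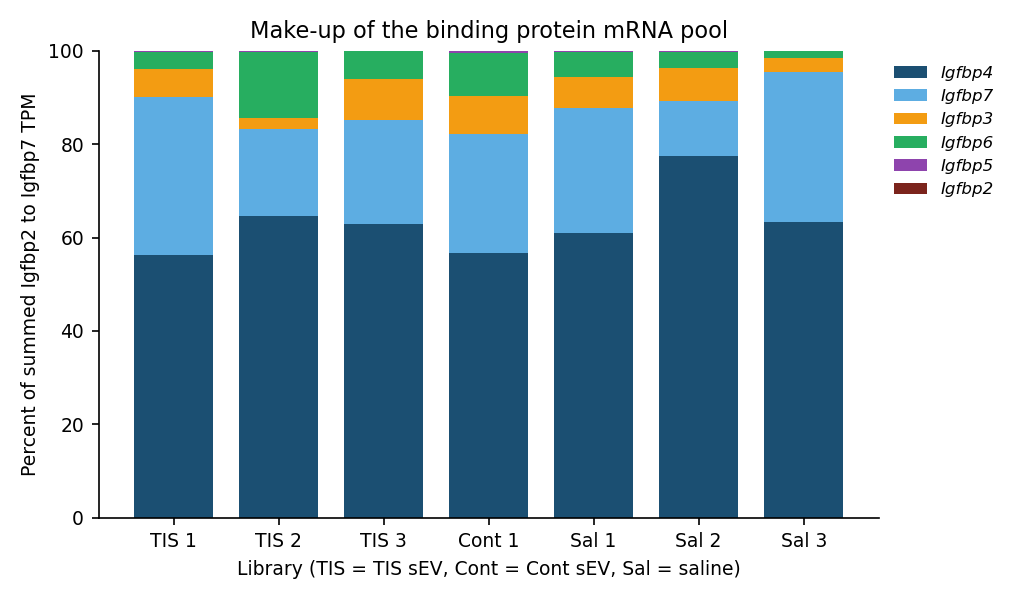
Percent of the summed Igfbp2 to Igfbp7 TPM held by each binding protein gene in each of the 7 libraries (stacked bars). Igfbp4 holds 56.2% to 77.4% and Igfbp7 11.8% to 33.8%, with overlapping TIS sEV and saline ranges.

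Of 15 other genes of the IGF system, 6 could be tested and 9 stayed under 1 TPM in every library. The low ones included Igfbp1, a binding protein of liver, and Ins2, an insulin gene, both listed at 0 in every library, and Pappa, whose product is the protease that cleaves IGFBP4, at 0.0244 TPM or less. Against saline 0 of the 6 passed in either direction (limma), as did 0% of all genes, and 0 had an unadjusted p under 0.05, against 14.8% of all genes. Their median log2 difference was -0.62, against -0.0037 for all genes, and 1 of 6 was above 0, against 49.6% of all genes. The growth hormone receptor Ghr, through which growth hormone induces Igf1 in liver, was at 6.00 ± 0.455 scaled TPM with TIS sEV and 10.1 ± 4.41 with saline (SD, n = 3 each), a difference of -0.59 (SE 0.29). The insulin receptor Insr, a close relative of Igf1r, was at 2.76 ± 1.277 and 4.61 ± 0.352 scaled TPM in TIS sEV and saline tumours (difference -0.64, SE 0.30). The secreted protease Htra1, which can cleave IGF binding proteins, differed by -0.92 (SE 0.69) and the IGF2 mRNA-binding protein Igf2bp2 by -0.67 (SE 0.29). Htra1 was at 158, 20.3 and 103 scaled TPM with TIS sEV, at 262 with Cont sEV and at 150, 111 and 139 with saline. Its groups overlapped, and TIS sEV replicate 2 was the lowest library.

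Of 22 genes that carry the signal from the receptor, 20 were tested and 0 passed against saline. At an unadjusted p under 0.05 in limma there was 1 as higher and 1 as lower, against 8.27% and 6.49% of all genes. The list median was -0.11, against -0.0037 for all genes, with 4 of 20 above 0, against 49.6%. The higher one was Eif4ebp1, a translation inhibitor that mTOR inactivates, at 118 ± 38.6 scaled TPM with TIS sEV and 67.8 ± 17.1 with saline (SD, n = 3 each), a difference of 0.78 (SE 0.29). The lower one was the adaptor Shc1, at 19.7 ± 1.08 and 26.8 ± 2.00 scaled TPM in TIS sEV and saline tumours, a difference of -0.42 (SE 0.16). The adaptor Grb2 differed by 0.33 (SE 0.16), and the kinases Akt1 and Akt2 by -0.05 (SE 0.22) and 0.14 (SE 0.19). The adaptor Irs1 was at 0.256 TPM or less in every library, whereas its relative Irs2 was tested and differed by -0.30 (SE 0.21).

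Markers of cell types that the tumours could hold were read beside these genes, and 0 of them passed in TIS sEV against saline in limma. For macrophages, which can produce IGF1, 10 of 12 markers were tested and 9 of 10 were above 0, against 49.6% of all genes. Their median was 0.82, against -0.0037 for all genes, and 2 of 10 were higher at an unadjusted p under 0.05, against 8.27% of all genes. The most abundant were the complement genes C1qa, C1qb and C1qc, which differed by 0.68 (SE 0.58), 0.46 (SE 0.59) and 0.47 (SE 0.58), and the lysosomal glycoprotein gene Cd68, which differed by 0.95 (SE 0.38). The summed level of the 12 macrophage markers was 456, 1748 and 1442 scaled TPM with TIS sEV, 994 with Cont sEV and 438, 930 and 664 with saline. The groups overlapped in this sum. Igf1 came to 0.774%, 0.959% and 0.667% of the summed macrophage marker TPM with TIS sEV, 0.0961% with Cont sEV and 0.302%, 0.108% and 0.0683% with saline.

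Cd163, a scavenger receptor of resident macrophages, was chosen from that list after its values were seen. It was at 15.2, 92.1 and 16.6 scaled TPM with TIS sEV, at 5.79 with Cont sEV and at 4.43, 11.3 and 1.72 with saline. Its log2 difference was 2.40 (SE 0.80), which did not pass (limma adjusted p = 0.338). This was the largest difference of the 10 tested macrophage markers, while Csf1r and Adgre1 differed by 0.06 (SE 0.42) and -0.11 (SE 0.33). The ratio of Igf1 to Cd163 TPM was 0.232, 0.182 and 0.581 with TIS sEV, 0.165 with Cont sEV and 0.299, 0.0886 and 0.264 with saline, and its groups overlapped. Cd163 was picked with a difference close to that of Igf1 (2.33), so overlap of this ratio was likely from the choice alone. The part of macrophage content in the Igf1 difference was not tested.

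For fibroblasts, the stromal source of many IGF system proteins, 10 of 12 markers were tested and 7 of 10 were above 0, against 49.6% of all genes. Their median was 0.34, against -0.0037 for all genes, and 2 of 10, Thy1 and Loxl1, were higher at an unadjusted p under 0.05 in limma, against 8.27% of all genes. Their summed level was 175, 173 and 266 scaled TPM with TIS sEV, 139 with Cont sEV and 245, 137 and 76.5 with saline, and the groups overlapped. The surface glycoprotein gene Thy1 was at 104, 64.3 and 154 scaled TPM with TIS sEV, at 74.5 with Cont sEV and at 74.3, 45.2 and 32.5 with saline, a difference of 1.06 (SE 0.40) with overlapping groups. The lysyl oxidase gene Loxl1 differed by 0.79 (SE 0.21), and the collagen genes Col1a1 and Col1a2 by 0.39 (SE 0.42) and 0.07 (SE 0.44). Of the 10 tested, 3 were below 0. These were Col3a1 at -0.79 (SE 0.58), Pdgfra at -0.74 (SE 0.63) and the matrix protein gene Postn at -0.30 (SE 0.29). Igf1 was 2.02%, 9.66% and 3.62% of the summed fibroblast marker TPM with TIS sEV, 0.685% with Cont sEV and 0.541% to 0.732% with saline. The part of fibroblast content in the Igf1 difference was not tested.

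Of the pericyte and smooth muscle markers 5 of 8 were tested (median 0.59, 5 of 5 above 0), of the endothelial markers 9 of 11 (median 0.20, 7 of 9 above 0) and of the epithelial tumour markers 9 of 9 (median -0.28, 4 of 9 above 0), against a median of -0.0037 and 49.6% above 0 for all genes. In these lists 0 had an unadjusted p under 0.05, against 14.8% of all genes. The contractile genes Tagln and Acta2 differed by 1.51 (SE 0.72) and 1.29 (SE 0.62), and Des and Rgs5 by 0.59 (SE 0.53) and 0.17 (SE 0.43). Of the endothelial genes, Egfl7, Emcn and Pecam1 differed by 0.72 (SE 0.48), 0.63 (SE 0.49) and 0.43 (SE 0.53), and Eng by -0.29 (SE 0.43). Of the epithelial markers, Krt8, Krt18 and Epcam differed by -0.28 (SE 0.39), -0.36 (SE 0.37) and -0.46 (SE 0.56), and Lcn2 by 0.18 (SE 0.96). Summed levels of the pericyte and smooth muscle markers were 40.0, 162 and 84.1 scaled TPM with TIS sEV, 51.5 with Cont sEV and 72.4, 19.4 and 24.4 with saline. Summed endothelial markers were at 63.8, 48.2 and 185 scaled TPM with TIS sEV, 112 with Cont sEV and 58.8 to 71.3 with saline. The groups overlapped in both sums.

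Adipocyte markers marked TIS sEV replicate 2, where Cfd was at 107 scaled TPM, against 0.141 and 0.544 in the other TIS sEV libraries, 7.45 with Cont sEV and 0.207 to 1.34 with saline. The sum of the 8 adipocyte markers was 11.2, 214 and 43.9 scaled TPM with TIS sEV, 32.5 with Cont sEV and 15.6 to 20.04 with saline, with Lep at 0.0175 TPM or less in every library. Of the 8, 3 were tested (median 1.15 and 3 of 3 above 0, against -0.0037 and 49.6% for all genes). These were Cfd, Fabp4 and Lipe, which differed by 1.84 (SE 1.62), 1.15 (SE 0.77) and 0.07 (SE 0.18). Fabp4 made up 38.7 of the 43.9 scaled TPM in TIS sEV replicate 3, where Adipoq was at 0.0486. The muscle gene Acta1 marked saline replicate 3 at 14.5 scaled TPM, against at most 1.30 in any other library, and the summed muscle markers were 2.16 to 5.72 with TIS sEV, 9.34 with Cont sEV and 2.93, 2.75 and 33.8 with saline. Of the 8 muscle markers Tnnt3 alone was tested, and it differed by -0.74 (SE 0.58). The part of these tissues in the results was not tested. Without TIS sEV replicate 2 and saline replicate 3 together, the Igf1 difference was 1.69, that of Igf1r -0.45, that of Igf2r -0.43 and that of Igfbp6 0.38.

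The genes most like Igf1 across the 7 libraries were Tnfsf12, Cbr2 and Pdlim4. Likeness was the mean absolute difference between log2 profiles, each centred on its own mean, over 7295 other genes with a mean of at least 5 TPM. It was 0.34 for Tnfsf12, a cytokine of the tumour necrosis factor family, 0.37 for Cbr2, a carbonyl reductase, and 0.39 for Pdlim4, a cytoskeletal adaptor, where the median gene was at 1.14. Cbr2 was at 57.9, 488 and 180 scaled TPM with TIS sEV, at 37.4 with Cont sEV and at 26.99, 35.3 and 14.9 with saline. Tnfsf12 was at 5.96, 28.9 and 13.99 scaled TPM with TIS sEV, at 4.82 with Cont sEV and at 2.42, 3.33 and 2.38 with saline. For all 3 genes, as for Igf1, each TIS sEV library was above each saline library, and TIS sEV replicate 1 was the lowest of its group. The 3 genes were picked for likeness to Igf1 over these same libraries, so the shared pattern follows from the choice. Of all genes tested, 11.4% were higher without overlap in scaled TPM.

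**Figure D5:**
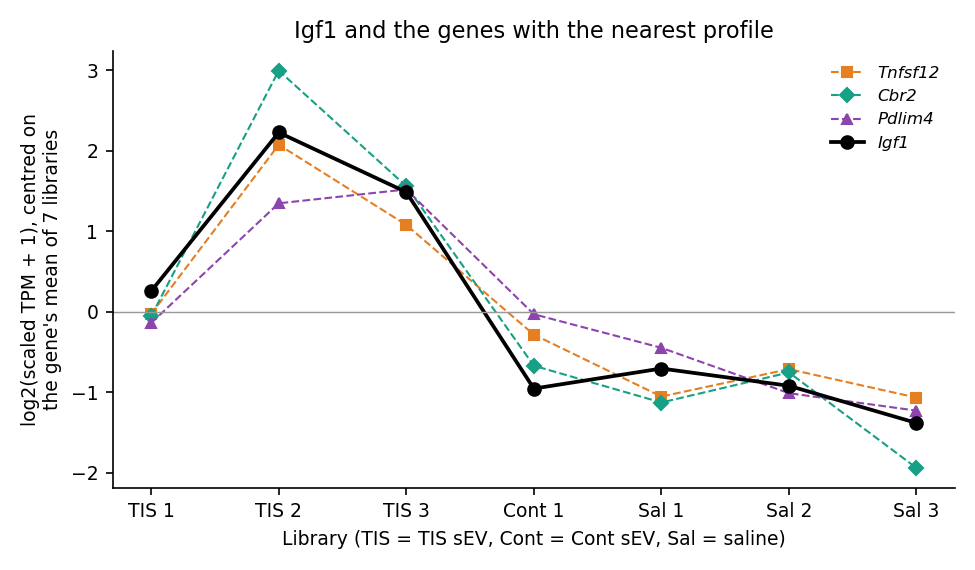
Log2(scaled TPM + 1) of Igf1 (black) and of the 3 genes with the nearest profile in each library, centred on each gene's mean. All 4 lines are highest in TIS sEV replicates 2 and 3, and the Igf1 value of the Cont sEV library lies among those of saline.

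For the other members the nearest profiles lay at 0.07 to 0.26. Igf1r was nearest to Tpbg, Sdc2, which encodes the proteoglycan syndecan 2, and Adgra3 (0.11 to 0.12). Igf2r was nearest to Nptxr, C1galt1c1 and Pxdn (0.18 to 0.20), each of which was at 1.19 scaled TPM or less in TIS sEV replicate 2. Igfbp3 was nearest to P3h1, a collagen prolyl hydroxylase (0.14), Mcam, an adhesion molecule of vessel cells (0.24), and Serpine2, a protease inhibitor (0.26). Igfbp4 was nearest to Pofut2, Slc25a29 and Marveld1 (0.16 to 0.17), and Igfbp7 to Col7a1, a collagen of anchoring fibrils (0.17), Fam3c (0.19) and Gaa, a lysosomal glucosidase (0.24). Igfbp6 was nearest to Il11ra1, a receptor subunit for interleukin 11 (0.07), Bola2 (0.15) and Gpx4, a lipid peroxidase (0.15). Il11ra1 was at 13.2, 29.2 and 38.1 scaled TPM with TIS sEV, at 34.5 with Cont sEV and at 21.3, 13.7 and 9.64 with saline. Within the TIS sEV and the saline group this was the same order of libraries as Igfbp6, which the choice by likeness favours.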

How the data were processed

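The authors deposited 1 table of TPM values for 55487 genes in 7 tumour RNA libraries. The submitters' processing notes name Salmon 1.4.0, Trim Galore 0.6.6, DESeq2 1.28.0, FastQC 0.11.9 and the build GRCm38.p6, without their order. The annotation used is not given in the sources used here. TPM keeps no depth, so no counting interval can be given. Columns named CE and NcE were read as Cont sEV and TIS sEV, a reading that the labels do not spell out and on which every comparison rests. Symbols and positions came from GENCODE M21 (GRCm38), where 55141 identifiers had a symbol.

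TPM was divided by median-of-ratios size factors (11848 genes above 0 in every library), because TIS sEV minus saline was -0.62 (log2) at the median gene in TPM as deposited and -0.0037 once scaled. Genes that reached 1 TPM in 3 or more libraries were fitted as log2(scaled TPM + 1) in limma 3.58.1 (R 4.3.3), with the intensity trend, 1 mean per group, 4 residual degrees of freedom, two-sided tests and Benjamini-Hochberg adjustment over all 12058 genes. The scale understates changes of low genes. The script was tested on simulated data. Members and gene lists were chosen with earlier results of these data known. Named from a list were its 4 most abundant tested genes, IGF genes with an unadjusted p under 0.05, and the 3 nearest profiles of each member. Cd163, Folr2, Mrc1, Trem2, Csf1r, Adgre1, Loxl1, Col3a1, Pdgfra, Acta1, Lep, Irs1, Irs2, Pappa, Igfbp1 and Ins2 were added after their values were seen. The alternatives were 14 other settings of the fit. No protein sequence was used here.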

Additional observations from a re-analysis of the deposited data

How the results depend on the processing

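No member passed the adjusted threshold under any of the 14 settings, and the signs of Igf1, Igf1r, Igf2r and Igfbp6 in TIS sEV against saline held in all in which they were tested (Igf1 1.69 to 3.14). Over all genes, TPM as deposited gave 62 calls for TIS sEV against saline, 25 for Cont sEV against saline and 27 for TIS sEV against Cont sEV, in place of 0, 1 and 1. No filter gave 293 and 280 for the comparisons with Cont sEV, quantile normalization gave 2 for Cont sEV against saline, and coding genes only and the replicate block gave 0 for both. Leaving out 1 library gave 0 to 4, 0 to 1 and 0 to 2 calls in the 3 comparisons, with 4 without TIS sEV replicate 1. Deviations of same-numbered TIS sEV and saline libraries from their group means had correlations of -0.34, -0.012 and 0.070 across the genes tested. The highest correlations were 0.316 for TIS sEV replicate 1 with saline replicate 3 and 0.315 for TIS sEV replicate 2 with saline replicate 1. So few values cannot decide whether the replicate numbers mark pairs. The block gave 0 calls for TIS sEV against saline, and for Igfbp7 an SE of 0.24 in place of 0.59. Signs turned for differences that were smaller than their SE in the fit of all libraries, and the cause was not tested. Some of the turned values exceeded their own SE. In TIS sEV against saline, leaving out 1 library gave -1.02 to 0.55 for Igfbp3 and -0.57 to 0.45 for Igfbp7, and leaving out TIS sEV replicate 2 and saline replicate 3 together, a setting chosen after seeing the data, gave 0.31 for Igfbp3, 0.065 for Igfbp4 and 0.89 for Igfbp7. In Cont sEV against saline, leaving out 1 library gave -0.14 to 0.20 for Igf1 and -0.49 to 0.41 for Igfbp7, and the pair together gave -0.14 and 0.41. In TIS sEV against Cont sEV, Igf1r was at -0.018 with quantile normalization, -0.022 with coding genes only, -0.11 with a pseudocount of 0.1 and -0.36 to 0.50 without 1 library. There Igfbp7 was at 0.11 with quantile normalization, 0.16 with the block and -0.41 to 0.48 without 1 library, Igfbp4 at -0.17 with the block and -0.30 to 0.45 without 1 library, Igfbp6 at -0.72 to 0.025 and Igfbp3 at -1.37 to 0.21 without 1 library, and the pair left out together gave 0.21 for Igfbp3 and 0.48 for Igfbp7. Without TIS sEV replicate 2, the ligand share of binding protein TPM differed between TIS sEV and saline by 1.26 percentage points in place of 3.83.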
